A study of Homo sapiens with 4 samples.

Results

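Every protein-coding gene was ranked by how much acetylated chromatin lay in and around it in LNCaP cells given dihydrotestosterone (DHT) against cells given vehicle. LNCaP is an androgen-responsive human prostate cancer cell line, and H3K27Ac, acetylation of lysine 27 of histone H3, marks active enhancers and promoters. ChIP-seq for H3K27Ac was made in cells of passage 20 kept in charcoal-stripped serum, which lacks steroid hormones, and given either ethanol vehicle or 10 nM DHT for 4 h. The 2 conditions share the cell line, the serum and the antibody target, and each has 1 library. How far separate cultures would differ is therefore unknown, and no difference is tested. The unit was a peak with its height, the number of tags at its highest point. For each of 20136 genes the heights of all peaks overlapping the gene and the 50 kb on either side were summed in each list. No gene was chosen in advance for the ranking, and 12777 genes (63.5%) had enough signal to be scored, a mean of at least 100 tags over both lists. Of the rest, 1586 genes had no peak in either list and 5773 had peaks but stayed under that minimum.

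DHT is the most potent natural androgen. It binds the androgen receptor, a nuclear receptor that then binds androgen response elements in DNA, palindromes of paired half-sites, mostly in enhancers away from promoters. There it recruits coactivators that include the acetyltransferases p300 and CBP, which acetylate H3K27, and genes such as the kallikreins and FKBP5 are textbook targets in prostate epithelium.

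The vehicle list held 57623 peaks of 9 to 212 tags and the DHT list 60752 peaks of 10 to 213 tags. Summed over the genome the heights came to 1849149 tags with vehicle and 2083919 with DHT, with mean heights of 32.1 and 34.3 tags. The numbers of reads are not in the lists and the heights are not stated to be scaled to them, so the score of a gene was read relative to the median gene. The score is the log2 of the DHT sum over the vehicle sum, with 50 tags added to each, minus the median of that value over the scored genes. That median was 0.13, a 1.09-fold excess with DHT, and it cannot be told apart from a difference in depth. Without this centring 9632 of the 12777 genes had the larger value with DHT.

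Most genes had nearly the same signal in both conditions. The middle 50% of scores lay between -0.12 and 0.13, the 5th and 95th percentiles were -0.33 and 0.44, and the extremes were -1.03 and 2.03. The upper tail was the longer. Raised, in what follows, means at least 1.5-fold over the median gene and lowered at least 1.5-fold under it. By this rule 318 genes (2.49% of those scored) were raised and 65 (0.509%) were lowered, so that 83.0% of the genes past either limit were raised. That split depends on the scale: it was 95.7% (574 and 26 genes) without centring and 66.6% (444 and 223 genes) when the 25000 tallest peaks of each list were used. Neighbouring genes share peaks, and the raised genes fell into 229 separate stretches of the genome and the lowered genes into 51.

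**Figure D1:**
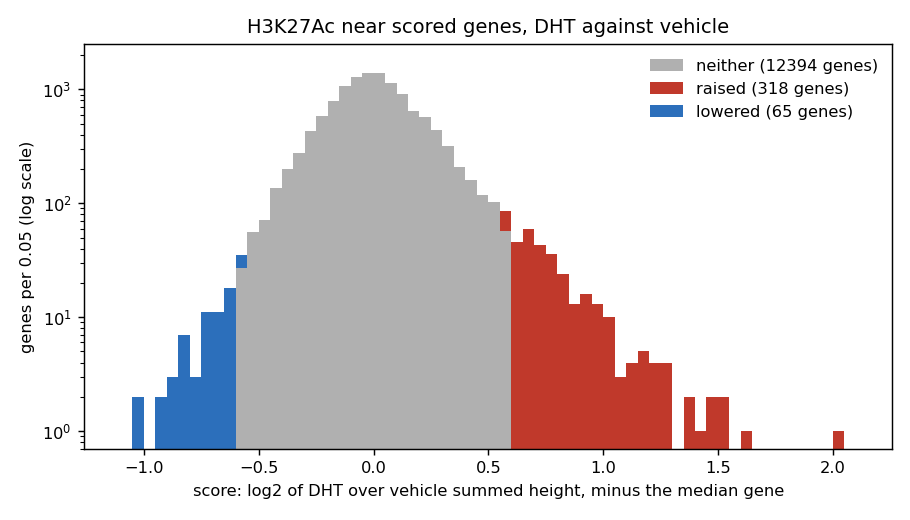
Number of scored genes (y axis, log scale) by score (x axis, log2 of the DHT over the vehicle summed height relative to the median gene), 1 library per condition. Raised genes (red) reach 2.03 and lowered genes (blue) end at -1.03, so the upper tail is the longer.

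The largest score belonged to ZNF385D, a zinc finger gene on chromosome 3. Its surroundings held 3 peaks and 41 tags with vehicle and 12 peaks and 356 tags with DHT, with a covered length of 3.27 and 22.8 kb and a mean height of 13.7 and 29.7 tags. The score was 2.03 and the ratio of the sums 8.68 (6.27 to 12.3). The bounds beside ratios are exact conditional 95% intervals that treat the summed heights as counts of independent tags. A height is the number of tags at the highest point of a called peak, so the bounds are only a rough guide to counting error. They cover no other source of difference. Of its 12 regions 9 had no vehicle peak, all lay inside this long gene, between 518 and 729 kb from its annotated start, and the tallest with DHT had 58 tags against 16. Regions here are stretches in which peaks of either list overlap. A region without a peak in a list adds 0 to that sum, though the lists start at 9 and 10 tags. Weaker signal is thus left out of the sums, and ratios at genes with many such regions, and their bounds, may be too large.

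Other leading genes combined new peaks with taller ones. PMEPA1, an androgen-induced gene whose product restrains TGF-beta signalling, went from 4 peaks and 150 tags to 6 peaks and 472 tags, a ratio of 3.15 (2.61 to 3.81) and a score of 1.26. Its gain sat upstream of the gene, where the region at -46.2 kb from the start had 41 tags in the vehicle list against 149 after DHT, and that at -51.6 kb had 38 against 136. The region 1.60 kb inside the start changed less, from 28 to 45 tags. OTULINL, on chromosome 5, went from 8 peaks and 190 tags to 14 peaks and 672 tags and had a score of 1.46, with 6 of 14 regions seen only with DHT. At its start 25 tags stood against 34, and 7.52 kb into the gene 34 stood against 107.

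Genes of ion and peptide transport were among the 15 highest loci. SLC26A3, a chloride-bicarbonate exchanger, had 126 tags before and 445 after DHT, and a region 17.4 kb into the gene had 15 and 112 tags. SLC15A2, a peptide transporter, had 61 and 265 tags, and shared its peaks with ILDR1. KCND2, which encodes a potassium channel, had 7 peaks and 174 tags with vehicle and 20 peaks and 540 tags with DHT. No region of these 3 genes was lost with DHT. Over all 243 scored solute carriers, however, the median score was -0.03, with 9 genes raised and 1 lowered.

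Among the remaining genes of the 15, signal was low with vehicle. ELOVL7, a fatty acid elongase, had 37 tags with vehicle and 172 with DHT, and SPRED1, which restrains Ras-MAPK signalling, had 33 and 169. HTR4, a serotonin receptor, had 33 and 173 tags, FASTKD2, a mitochondrial RNA-binding protein, 53 and 278, and ADARB2, of the family of RNA-editing enzymes, 117 and 367. PHB1, prohibitin, had 55 and 264, CLXN 32 and 187, and VXN, which shares its peaks with MYBL1, 62 and 297. These genes were picked by the score, so the larger DHT value in all of them was fixed by the choice. The lowest of the lower bounds of the ratio, 2.54 at ADARB2, comes from the same tags.

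**Figure D2:**
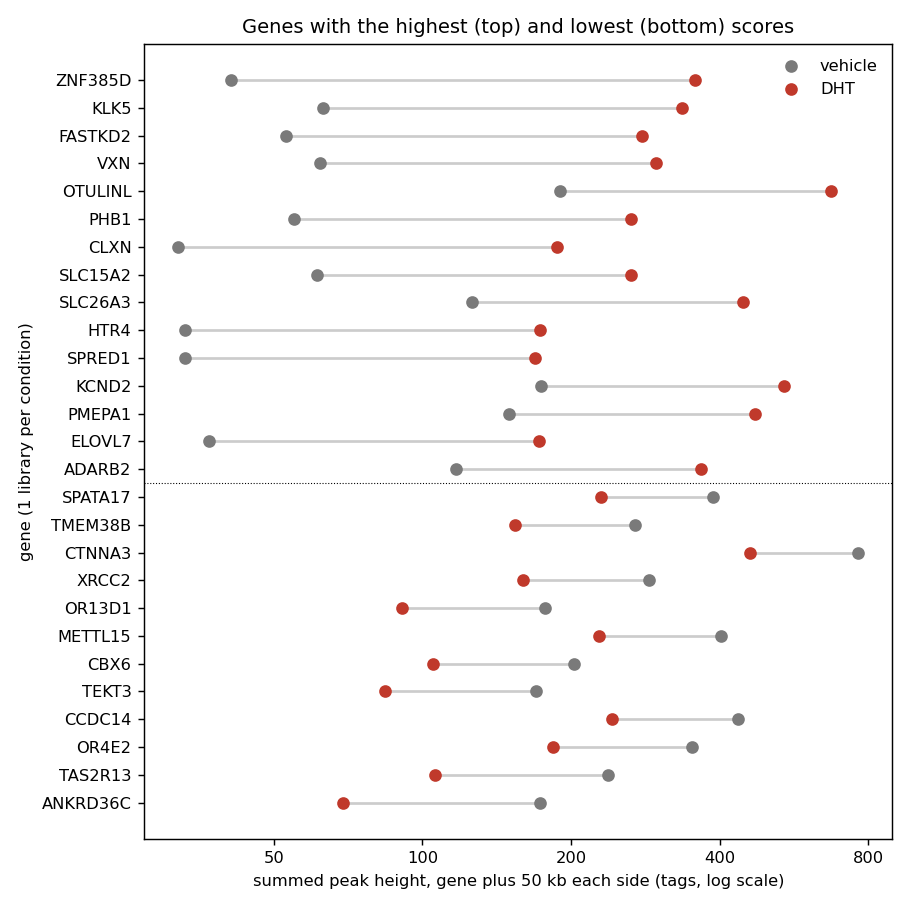
Summed height in tags (x axis, log scale) with vehicle (grey) and DHT (red) for the 15 highest and 12 lowest scored loci (y axis), 1 library per condition. The distance between points is wider at the top, up to 41 against 356 tags for ZNF385D, than at the bottom, down to 173 against 69 tags for ANKRD36C.

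How a peak was split decided some values. KLK5, a kallikrein protease of skin, was second with 63 and 335 tags, but a DHT peak 12989 bp wide reached into its surroundings from the side of KLK2, while the vehicle peak at the same place was narrower and ended outside them. With peaks of both lists merged into regions, each counted at its tallest height, the score of KLK5 was 0.75 in place of 1.64. CSF1R, the receptor of a macrophage growth factor, went from 147 to 372 tags with a score of 0.97, and merging left 0.18. HTR4 had 0.75 by merging in place of 1.30, PHB1 0.99 in place of 1.45, and ZNF385D 2.02 in place of 2.03. Of the 318 raised genes 290 were raised by merged regions as well, and none turned negative.

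The kallikrein cluster on chromosome 19 showed the opposite effect of splitting. KLK3, which encodes prostate-specific antigen, had 10 peaks and 569 tags with vehicle, and 5 peaks and 711 tags with DHT. KLK2 had 10 peaks and 516 tags, and 5 peaks and 644 tags. Their covered length went from 40.6 to 83.7 kb and from 35.6 to 72.1 kb, and their mean height from 56.9 to 142 tags and from 51.6 to 129 tags, since wide DHT peaks replaced several narrow ones. The scores were 0.17 for both, and 0.66 for KLK3 and 0.71 for KLK2 by merged regions. KLK4, another kallikrein of the prostate that shares these peaks, was raised on either reading, with 322 and 644 tags and scores of 0.77 and 0.71. The 5 regions around KLK4 were all taller with DHT, at 82 and 148, 97 and 161, 95 and 180, 44 and 103, and 19 and 52 tags. ABCC4, a cyclic nucleotide and prostaglandin exporter, had scores of 0.22 and 0.56 on the 2 readings, and ZBTB16, a zinc finger gene of the glucocorticoid and androgen response, had -0.06 and 0.46.

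The order by gain in tags, after the same centring, began with PTPRM, OTULINL, IGF1R and STK39. PTPRM, a receptor tyrosine phosphatase, had 340 tags with vehicle and 886 with DHT, in 18 and 29 peaks. IGF1R, the receptor of insulin-like growth factor 1, had 422 and 915 tags in 18 and 24 peaks, a ratio of 2.17 (1.93 to 2.44). STK39, a kinase that regulates ion cotransporters, had 437 and 894 tags. All of these were raised, as were RARB, a retinoic acid receptor with 602 and 1028 tags, and LRRFIP2 with 402 and 790. FBXL17, an F-box protein, went from 1585 to 2106 tags but had a score of 0.27, under the limit. C1orf21 (score 0.48), ANKH (0.52), an inorganic pyrophosphate transporter, and TBC1D1 (0.56), a regulator of glucose transporter traffic, were under it as well.

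At IGF1R all regions gained with DHT lay inside the gene. From 141 to 161 kb past the start, 3 regions went from 55, 15 and 18 tags before DHT to 153, 101 and 56 after it, and 2 others between them, of 30 and 37 tags, had no vehicle peak. Towards the end of the gene, regions at 294 and 305 kb had 17 and 45, and 27 and 79 tags, while regions past its end had 34 and 32 tags at 332 kb and 38 and 36 tags at 335 kb. FKBP5, a cochaperone of steroid receptors, had 8 peaks and 250 tags with vehicle and 13 peaks and 575 tags with DHT, a ratio of 2.30 (1.98 to 2.68). The region at its start had 73 and 134 tags, one 126 kb into the gene had 54 and 97, and 137 kb in, a region of 58 tags was seen with DHT only. In both genes, neighbouring regions of the same locus differed in their change.

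**Figure D3:**
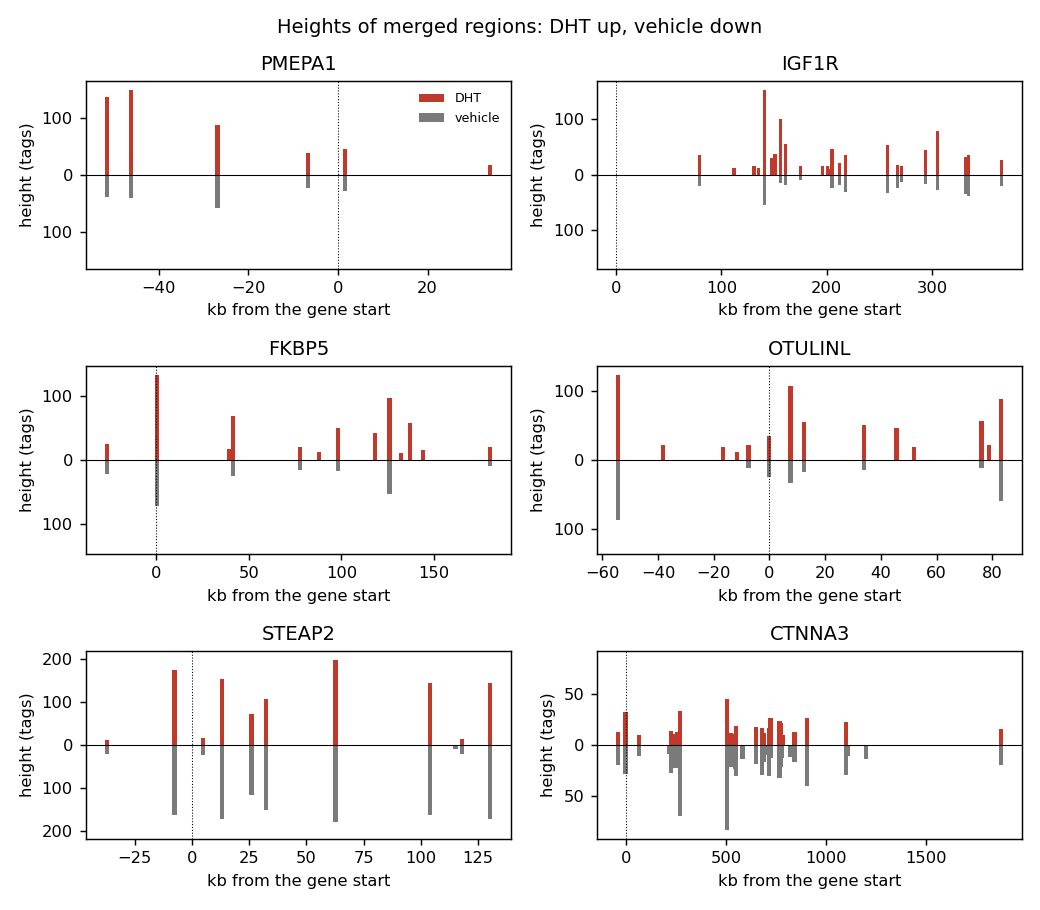
Height in tags (y axis) of each merged region by its distance in kb from the annotated gene start (x axis, positive into the gene), with DHT (red, upward) and vehicle (grey, downward), 1 library each. PMEPA1, IGF1R, FKBP5 and OTULINL have regions several times taller with DHT, while STEAP2 and CTNNA3 have the larger sums with vehicle.

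Across the raised genes the median sum was 120 tags with vehicle and 266 with DHT, in 5 and 7 peaks, with a covered length of 8.77 and 15.5 kb and a mean height of 25 and 37.9 tags. For all scored genes the medians were 216 and 245 tags in 6 and 6 peaks, with 14.5 and 15.5 kb covered and mean heights of 35.7 and 39.2 tags. Of all scored genes, 4596 had more peaks with DHT, 4936 the same number and 3245 fewer. Of the raised genes, 285 had more, 26 the same number and 7 fewer, which is partly built in because each peak adds to the sum. None was without a vehicle peak, but the minimum largely fixes this, since genes such as ORM1, with 0 and 43 tags, and KRT14, with 0 and 34, were not scored. In 316 of 318 the score stayed above 0 when the most changed region of each gene was left out, and 123 stayed past the limit. That reading tends to weaken a gene by its construction, though SLC15A2 went from 1.38 to 1.40. With the scored genes cut into 5 equal groups by mean sum, the share raised was 3.25% in the lowest group and 1.72% in the highest.

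Around raised genes, regions at the gene start differed less than the others. The ranking partly fixes this, because the sums that picked these genes come mostly from regions away from the start. Of the raised genes 173 had a region within 1 kb of the start, with medians of 27 tags with vehicle and 41 with DHT. The median log2 of DHT over vehicle, not centred, was 0.40 at the start and 0.93 over the other regions of these genes. The measures differ: the tallest region with 5 tags added at the start, and the sum with 50 tags added elsewhere. For genes that were neither raised nor lowered the corresponding medians were 0.17 and 0.12. The regions within 1 kb of the start held 9.09% of the height around raised genes and 4.54% of their gained tags. For genes that were neither raised nor lowered these shares were 13.0% and 8.02%. Over 50 kb from the start lay 48.5% of the gained tags of raised genes, near the 46.4% of their height found there. Raised genes were also longer, with a median span of 61.3 kb against 32.7 kb for scored genes, which widens the stretch over which peaks are summed.

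Raised genes were most frequent on chromosome 8, with 29 of 466 scored genes (6.22%), and, of the other autosomes, least on 19 (6 of 937, 0.640%) and 16 (5 of 663, 0.754%). The ratio of all summed heights was 1.12 on chromosome 8 against 1.14 on both of the latter. Lowered genes were most frequent on chromosome 9 (9 of 523, 1.72%).

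Housekeeping genes bear on the scale. The 13 scored of 14 had a median score of -0.02, which was 0.11 without centring, with none raised or lowered. ACTB had 164 and 195 tags with vehicle and DHT, EEF1A1 139 and 186, and RPLP0, the lowest, 300 and 221. The 67 scored of 81 ribosomal protein genes had a median of 0.03 and again none past a limit.

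Androgen-induced genes stood highest of all lists. Of 32 genes known to be induced by androgen in prostate cells, 28 were scored, 9 were raised, none was lowered, and 25 lay above the median gene, where the raised share of all scored genes was 2.49%. The median score was 0.37 against 0 for all scored genes, and it ranged from 0.30 to 0.68 over the other centred settings. The list was chosen with earlier results of these data known, so it serves as a check of the labels and is not independent evidence. The raised members besides PMEPA1, FKBP5, IGF1R and KLK4 included ELL2, TRPM8, ZBTB10 and AFF3. ELL2, a transcription elongation factor, had 161 tags before and 366 after DHT. TRPM8, a cold-sensing channel, had 120 and 258, ZBTB10 had 233 and 441, and AFF3, a nuclear protein of the elongation factor family, had 336 and 606.

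Below the limit of 1.5-fold the list went on. TMPRSS2, a serine protease, had 340 and 572 tags and a score of 0.55, and CENPN, a centromere protein, 294 and 496 tags and 0.54. RAB3B, a GTPase of secretory vesicles, had 249 and 402 tags and a score of 0.47, but 0.12 without its most changed region. TPD52 had 772 and 1121 tags, and SPDEF, an ETS factor, 364 and 473. The 4 members that were not scored had few tags, with 26 and 120 at HPGD, 14 and 79 at SNAI2, 0 and 43 at ORM1 and 14 and 23 at MAF. The last members of the list were PLPP1 with 524 and 530 tags and a score of -0.11, SLC45A3 with 890 and 898 and -0.12, which merging turned to 0.09, and STEAP2.

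STEAP2, a metalloreductase, had the lowest score of the list, -0.53, with 11 peaks and 1188 tags with vehicle and 9 peaks and 890 tags with DHT, a ratio of 0.749 (0.686 to 0.818). Part of this was splitting, since merging gave -0.33. Its regions went both ways, with 163 and 175 tags at -7.68 kb from the start and 179 and 198 tags at 62.7 kb, but 152 and 106 at 32.3 kb and 171 and 143 at 130 kb. STEAP4, of the same family, had 181 and 275 tags and a score of 0.36.

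Genes known to be repressed by androgen had a median score of -0.12, which turned to 0.01 without centring and ranged from -0.30 to 0.03 over the other centred settings, and 4 of the 11 scored of 14 lay above the median gene. None was lowered. OPRK1, an opioid receptor, had 164 tags with vehicle and 124 with DHT (score -0.43), and BCHE, butyrylcholinesterase, 625 and 513 (-0.39). UGT2B15 and UGT2B17, which glucuronidate androgens, had 205 and 188, and 351 and 331 tags. They are near copies of each other, so their tags cannot be told apart with certainty. NRXN3, a neurexin, went against its list with 408 and 762 tags and was raised (0.70), with 22 tags against 73 and 30 against 97 in 2 regions 1356 and 1359 kb from its start. The region tallest with vehicle, at 1243 kb, had 95 and 86 tags.

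**Figure D4:**
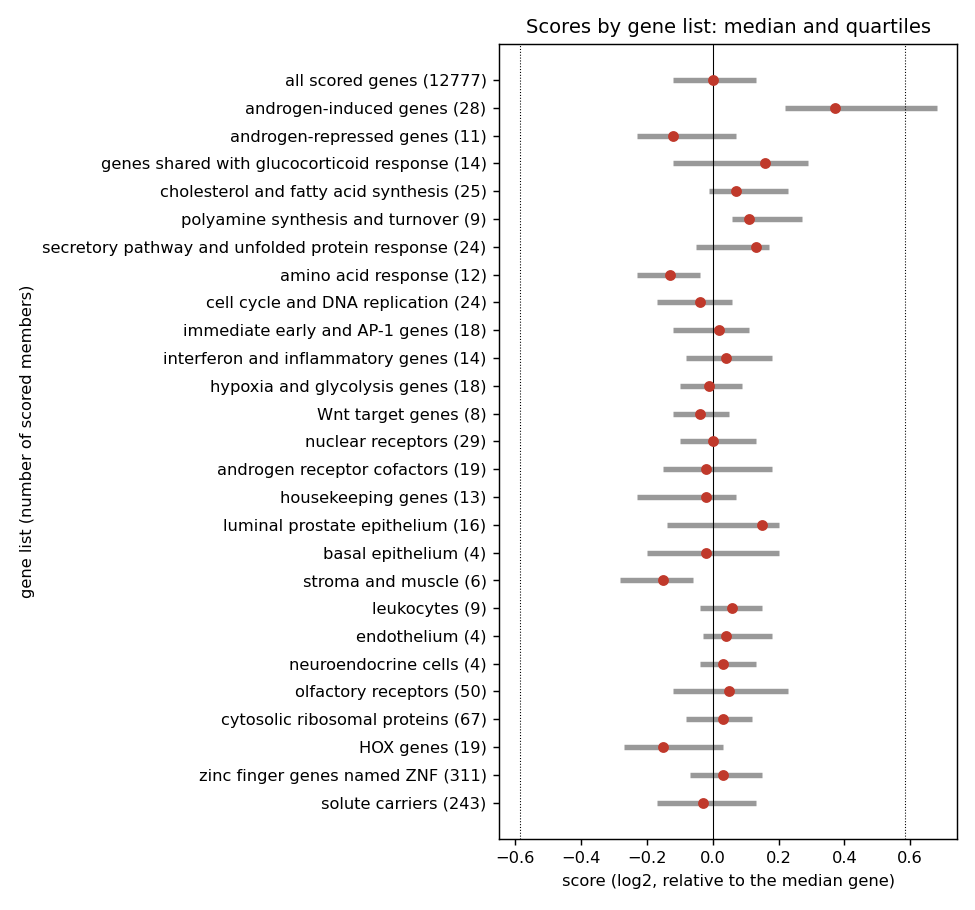
Median score (red) and quartiles (grey bars) of each gene list (y axis, with the number of scored members), on the log2 scale relative to the median gene (x axis, solid line at 0, dotted lines at 1.5-fold), 1 library per condition. The androgen-induced genes have the highest median, 0.37, and the HOX genes and the stroma and muscle list the lowest, -0.15.

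Other lists stayed near the median gene. Of the 26 lists, only the androgen-induced, glucocorticoid, cholesterol, amino acid, HOX and solute carrier lists had medians whose sign did not turn in any other centred setting, and without centring the median of the solute carriers turned from -0.03 to 0.10. Of 14 scored genes of the glucocorticoid response, whose receptor recognises the same element, FKBP5 was raised, and the median was 0.16. NFKBIA, an inhibitor of NF-kappaB, had 243 and 389 tags, ERRFI1, an inhibitor of the EGF receptor, 579 and 790, and DUSP1, a MAP kinase phosphatase, 112 and 111. In polyamine synthesis, 1 of 9 scored genes was raised: SMS, spermine synthase, with 140 and 274 tags, where the tallest peak had 102 and 103 tags and the largest gains lay upstream, at -26.1, -36.1 and -40.1 kb from the start. The median of that list was 0.11, and 8 of the 9 genes lay above the median gene, AMD1 with 258 and 358 tags among them. Of cholesterol and fatty acid synthesis, none of 25 was raised (median 0.07), with SQLE at 100 and 175 tags, ELOVL5 at 358 and 517, and SREBF1 lowest at 511 and 435, where merging left a score of -0.03. The secretory pathway and unfolded protein response had none of 24 (median 0.13), with 246 and 369 tags at ATF6 and 652 and 634 at XBP1.

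No gene was raised or lowered among the 24 scored genes of cell cycle and DNA replication (median -0.04), the 18 immediate early genes (0.02), the 14 interferon and inflammatory genes (0.04), the 18 of hypoxia and glycolysis (-0.01), the 12 of the amino acid response (-0.13) and the 8 Wnt targets (-0.04). Of the amino acid response, 2 of 12 lay above the median gene, and SLC7A11, a cystine transporter, had 232 and 204 tags. KLF6 had 101 and 185 tags and MCM2, a replicative helicase subunit, 270 and 217. The 19 scored HOX genes had a median of -0.15 with none past a limit, and the 311 scored genes named ZNF one of 0.03, with ZNF22 and ZNF385D raised. Without centring, the negative medians of the cell cycle, hypoxia and Wnt lists turned to 0.09, 0.12 and 0.09.

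Nuclear receptors and cofactors of the androgen receptor had medians of 0 and -0.02, and of 0.13 and 0.11 without centring. Of 29 scored receptors, RARB was raised and PGR lowered, and of 19 scored cofactors 1 was raised. PGR, the progesterone receptor, had 355 tags with vehicle and 215 with DHT, a ratio of 0.606 (0.509 to 0.719) and a score of -0.74. Of its 10 regions 9 were lower with DHT, with 101 and 68 tags in the tallest, 15.3 kb into the gene, and 42 and 15 at 28.6 kb. FOXA1, a pioneer factor that opens chromatin for the androgen receptor, had 485 and 460 tags, and GRHL2, a factor of epithelia, 1040 and 908, which by merged regions were 880 and 896. NCOA4, a coactivator, had 183 and 318 tags (0.53), and NCOR1, a corepressor, 784 and 1153 (0.40).

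Markers of cell types were given the same score. The luminal prostate list had 16 of 17 genes scored, with 1 raised and a median of 0.15, and KRT19 had no peak in either list. FOLH1, prostate-specific membrane antigen, had 227 and 221 tags and ACP3, prostatic acid phosphatase, 510 and 501. Fewer markers of other types were scored, 4 of 11 for basal epithelium, 6 of 13 for stroma and muscle, 9 of 12 for leukocytes, 4 of 7 for endothelium and 4 of 10 for neuroendocrine cells, with medians of -0.02, -0.15, 0.06, 0.04 and 0.03. Among these CSF1R was the only gene past a limit, with the dependence on splitting given above. A sum within 50 kb of a marker can come from peaks of a neighbouring gene.

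Androgen response elements followed the change in height. The element is written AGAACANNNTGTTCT, where N is any base, and a match was taken with at most 2 mismatches in the 12 fixed letters, on both strands at once because the letters are palindromic. It lay within 1000 bp around the centre of 16.1% (15.4% to 16.8%, Wilson) of the 10384 DHT peaks without vehicle overlap, of 7.93% (7.70% to 8.17%) of the 50368 DHT peaks with overlap, and of 6.81% (6.24% to 7.43%) of the 6814 vehicle peaks without DHT overlap. Of all 1000 bp windows of the genome without gaps, 7.32% held a match. Sequence was not used by the ranking.

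Among regions present in both lists the share increased in steps with the ratio of heights. It was 6.98% (6.70% to 7.28%) of 29008 regions with a ratio of 0.9 to 1.5, 11.7% (10.7% to 12.7%) of 4015 with 1.5 to 2, 15.3% (13.9% to 16.9%) of 2239 with 2 to 3, and 21.2% (18.7% to 23.9%) of 967 at least 3-fold taller with DHT. Below 0.9 it was 6.76% (6.34% to 7.20%), under the share of genome windows. The intervals of these upward steps do not overlap. Wilson intervals of peak shares treat peaks as independent, and with 1 library per condition they say nothing about separate cultures. Regions over 1 kb from any gene start gave 8.32%, 12.2%, 15.6% and 21.0% in the same order.

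The same half-sites 5 bases apart, AGAACANNNNNTGTTCT, served as a control. They were found near 6.93%, 8.92%, 9.60% and 14.8% of these groups, against 9.50% of genome windows. The control therefore increased as well, and both it and the element started below their genome shares. The control lay in 11.0% of DHT peaks without vehicle overlap, 7.62% of those with overlap and 8.03% of vehicle peaks without DHT overlap. The forkhead motif TGTTTAC, searched on both strands with no mismatch, lay in 6670 of the 29008 regions with a ratio of 0.9 to 1.5 (22.5% to 23.5%), in 32.9% of those at least 3-fold taller, and in 30.5% of those under 0.9, against 14.9% of genome windows. Distance from gene starts was not held equal in the forkhead shares.

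**Figure D5:**
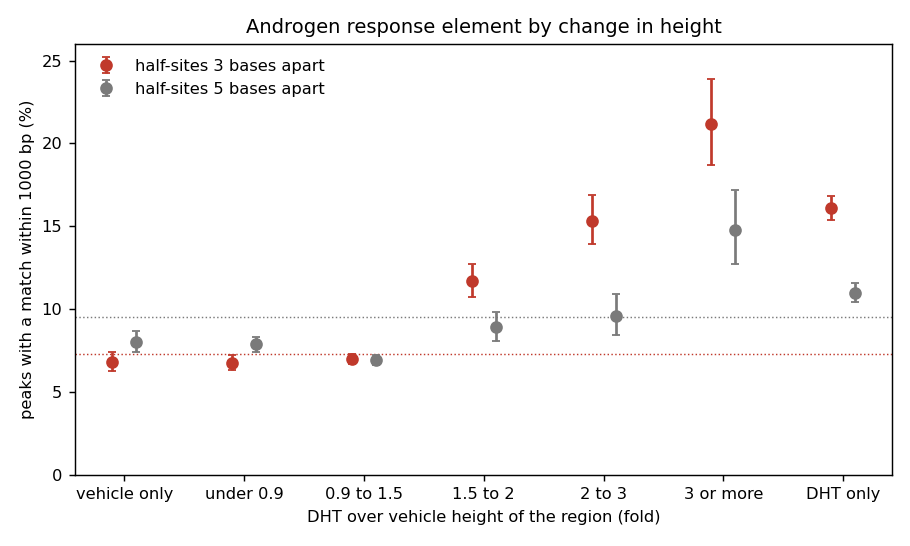
Share of peaks (y axis, %) with a match to the androgen response element (red) or to its half-sites 5 bases apart (grey) within 1000 bp around the centre, by the DHT over vehicle height of the region (x axis), with 95% Wilson intervals and the genome share as dotted lines. The red share goes from 6.76% below 0.9-fold to 21.2% at 3-fold or more, and is 16.1% for peaks seen with DHT only. The grey share is 7.87%, 14.8% and 11.0% in the same groups.

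Near raised genes, the element was found in 14.0% (12.6% to 15.5%) of 2229 DHT peaks, against 8.42% (8.16% to 8.69%) of 41975 DHT peaks near other scored genes and 7.64% (5.19% to 11.1%) of 314 near lowered genes. Within the surroundings of raised genes it was in 18.1% of the 816 peaks gained with DHT, in 16.1% of the 689 at least 1.5-fold taller and in 7.32% (5.64% to 9.45%) of the 724 others. The interval of these last includes the share of genome windows. The control was in 9.74% of the peaks near raised genes and 7.61% of those near other scored genes, and in 12.1%, 10.6% and 6.22% of the 3 groups within raised genes, so it differed in the same direction. With at most 1 mismatch the element was in 1.57% (1.13% to 2.18%) of peaks near raised genes, 1.91% (0.879% to 4.11%) near lowered genes and 0.862% near other scored genes. Only 6 of the 314 peaks near lowered genes held such a match. Their interval includes the share near raised genes and starts just above that near other scored genes.

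For 23 loci the tallest DHT peak of the most changed region was searched for the closest match. They were leading genes by score and by gain and the 3 highest androgen-induced genes. VXN and CLXN, though among the 15 highest loci by score, were not searched, so the counts of mismatches leave them out. In 2 loci the closest match had 1 mismatch, in 7 it had 2 and in 14 it had 3. These peaks had a median width of 3.27 kb, and the widest that held a match with at most 2 mismatches, at KLK5, spanned 12989 bp. That match lay 65.9 kb from the KLK5 start, outside the 50 kb on either side of the gene. Whole peaks were searched, and wider ones hold more matches by their length, so no share is compared with the genome here. Of the 9 matches with at most 2 mismatches, the 7 outside exons are printed from GRCh37, plus strand, with the element in capitals. They show what a match looks like. The shares above count only matches within 1000 bp around the peak centre, and the matches at KLK5 and FBXL17 lie outside that window. The match at FBXL17 has 1 mismatch and the others have 2.
FBXL17, chr5:107252226-107252254, intron: caatttcAGAAAAGGCTGTTCTttcctca
IGF1R, chr15:99332478-99332506, intron: gttgacaGGGACACATTGTTCTaggcttc
STK39, chr2:169077823-169077851, intron: acaagctAGAACATTATGTTAAtacatgc
KLK5, chr19:51390438-51390466, intron of the lncRNA gene KLKP1: cataggaAGAAGTCTCTGTTCTcagggat
OTULINL, chr5:14589322-14589350, intron: tgtgaaaAGGACACCGTGTGCTatgagag
ELOVL7, chr5:60123302-60123330, intron: taaacatAGAAAAACATTTTCTtctagac
SPRED1, chr15:38661357-38661385, between genes: agatgaaATAACAACTTGTTCAgttatac

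The regions that hold these matches had 56 tags with vehicle and 129 with DHT at FBXL17, 0 and 74 at LRRFIP2, 55 and 153 at IGF1R, 20 and 96 at STK39, and 95 and 180 at the kallikreins. At OTULINL, ELOVL7, SPRED1 and ANKH they had 34 and 107, 13 and 53, 0 and 35, and 83 and 158 tags. The element lay 141 kb past the IGF1R start, 7.43 kb past that of OTULINL and 26.3 kb past that of STK39. Those at LRRFIP2, with 1 mismatch, and at ANKH, with 2, lay in an exon of at least 1 transcript of these genes. A match describes the letters and is not a site shown to be bound, and the closest match at PMEPA1, FKBP5 and ZNF385D had 3 mismatches.

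The lowered genes formed a smaller and shallower group. Their median sum was 229 tags with vehicle and 138 with DHT, in 7 and 5 peaks, with 14.0 and 10.0 kb covered and mean heights of 30.4 and 26.5 tags. Of the 65 genes 56 had fewer peaks with DHT and none had more, which the sum partly builds in. Among all scored genes 3245 had fewer and 4596 had more. Without the most changed region all 65 stayed below 0 and 37 stayed past the limit, and 56 stayed past it by merged regions. At the 32 genes with a region within 1 kb of the start, the median log2 of DHT over vehicle there was 0, and over the other regions -0.59. For genes neither raised nor lowered these medians were 0.17 and 0.12. As for raised genes, the values are not centred, the measures differ, and the ranking partly fixes the contrast.

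The lowest score, -1.03, belonged to ANKRD36C, an ankyrin-repeat gene on chromosome 2, with 12 peaks and 173 tags with vehicle and 3 peaks and 69 tags with DHT. Its 9 lost regions had 9 to 15 tags each, close to the lowest height in the vehicle list, 9 tags, and the region at its start had 33 tags in both. The gene has near-identical copies, so its tags are uncertain. TAS2R13, a bitter taste receptor that shares its peaks with salivary protein genes, had 238 and 106 tags, CCDC14 435 and 242, TEKT3, a sperm tail protein, 170 and 84, METTL15, a mitochondrial ribosomal RNA methyltransferase, 403 and 228, TMEM38B, an ion channel of the endoplasmic reticulum, 269 and 154, and SPATA17 387 and 230. For CBX6, a Polycomb protein with 203 and 105 tags, OR13D1 with 177 and 91, and OR4E2 with 352 and 184, merging left scores of -0.15, -0.21 and -0.35 in place of -0.84, -0.82 and -0.91. XRCC2, of DNA repair, had 288 and 160 tags, and scores of -0.81 and -0.59.

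CTNNA3, an alpha-catenin gene of great length, was lowered over many sites at once. It had 34 peaks and 764 tags with vehicle and 25 peaks and 461 tags with DHT, a ratio of 0.603 (0.536 to 0.678). Of its 35 regions 10 were lost and 1 was gained, and regions 505 and 271 kb from the start had 83 and 45, and 69 and 33 tags. The region at its start had 28 tags with vehicle and 32 with DHT. By loss in tags after centring, CNBD1 came first with 2947 and 2479 tags (score -0.37), followed by NAALADL2 with 5600 and 5566 (-0.14), LUZP2 with 1986 and 1648 (-0.39), STEAP2, described above, EPHA3, an ephrin receptor, with 2023 and 1830 (-0.27), and CTNNA3. Of these 6 genes CTNNA3 alone was past the limit.

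Olfactory receptors are silent in most tissues outside the nose. Of 414, 205 had no peak within reach and 50 were scored, with a median of 0.05, 4 raised and 2 lowered. OR4M1 had 57 and 184 tags, OR4Q3 57 and 189, OR4N2 149 and 389 and OR11H2 153 and 324, and the former 3 lie side by side on chromosome 14 and share peaks. A summed height within 50 kb does not say which gene a peak serves.

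Numbers of peaks and summed heights did not always give the same order. WTIP had 3 peaks with vehicle and 2 with DHT but 127 and 204 tags, and its score was -0.05 without the most changed region. TMEM196 had 5 and 4 peaks with 90 and 209 tags. SMURF2, a ubiquitin ligase, had 17 and 13 peaks with 375 and 538 tags. IL6 had 1 and 2 peaks with 120 and 98 tags.

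TCF7L2, a transcription factor of the Wnt pathway mapped in LNCaP cells of passage 15 in serum that was not stripped, gave a readout outside the ranking. At least 1 TCF7L2 peak lay in the surroundings of 71.7% (66.5% to 76.4%) of raised genes, 49.2% (37.5% to 61.1%) of lowered genes and 76.8% (76.1% to 77.5%) of all scored genes. Raised and lowered genes are longer, and the density was 0.876 peaks per 100 kb around raised genes, 0.444 around lowered genes and 1.29 around all scored genes. PTPRM had 5 TCF7L2 peaks, STK39 10 and TBC1D1 13, while ZNF385D, OTULINL and KCND2 had none. Genes share peaks, so these intervals are too narrow.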

How the data were processed

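ChIP-seq peak lists of LNCaP cells were used, 1 for H3K27Ac with vehicle, 1 with DHT and 1 for TCF7L2. An input library was not used here. The build was hg19, and Sole-search was run by the authors on each library alone to find the peaks. Bowtie 2 was the aligner by the study's methods, and the submitters' processing notes name CASAVA 1.8.2, Bowtie2 and BWA. The value the authors deposited for each peak is a signal, its height in whole tags, with no stated scaling, so depth is unknown. Peaks start at steps of 30 bp, and wide and narrow peaks count alike.

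Genes were the protein-coding genes of GENCODE release 44 mapped to GRCh37 (hg19), 1 span per symbol. Heights within 50 kb were summed, with a pseudocount of 50 tags. No test was run, with 1 library per condition. Intervals are Clopper-Pearson for ratios and Wilson for shares. Named were the 15 highest and 12 lowest loci by score, 10 gains, 6 losses, 5 genes whose orders differ, and 3 highest and 2 lowest members of each list, less genes sharing at least 50% of their height with one before. Other genes were chosen after their values were seen. Some members of the lists are not reported here. Members, lists and settings were chosen with earlier results of these data known. Of the listed symbols, 1 endothelial one was not matched. Code was tested on simulated data. The tools were scipy 1.17.1 and pandas 2.3.3 with numpy 2.4.6 under Python 3.11.15, and figures came from matplotlib 3.10.9.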

Additional observations from a re-analysis of the deposited data

How the results depend on the processing

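With 1 library per condition no replicate could be left out and no spread between cultures is known. No paired analysis was possible because each condition has 1 sample and no result comes from a test. With windows of 10 and 100 kb in place of 50 kb, 131 and 180 of the 318 raised genes stayed raised (286 and 317 above 0), and 17 and 41 of the 65 lowered genes stayed lowered. With each peak given to the nearest gene start 119 and 17 did, with the tallest peak 142 and 30, and with merged regions 290 and 56. The number of raised genes was 222 and 365 with these windows, and 324 with merged regions. It moved by over 1.5 times to 497 with the tallest peak, 567 with height times width, 574 without centring, 509 and 57 with pseudocounts of 10 and 200 tags, 602 without a minimum, 71 with a minimum of 300 tags and 39 at 2-fold. The number of lowered genes became 134, 143, 26, 163, 6, 124, 10 and 2 in the same order, and 223 with the 25000 tallest peaks. Without the most changed region, an alternative chosen after seeing the data, 134 genes were raised and 45 lowered. For the minimum, the fold and the pseudocount the construction shows the cause. For the other settings the cause was not tested. By the tallest peak NRXN3 and SMS turned to -0.08 and -0.09.

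The share of gained, shared and lost peaks with an androgen response element was 2.52%, 0.695% and 0.484% with 1 mismatch, 64.4%, 50.1% and 52.6% with 3, and 22.5%, 14.5% and 13.0% in windows of 2000 bp, where 14.2% of genome windows had a match. With no mismatch, added after seeing the data, it was 0.193%, 0.0417% and 0.0147%. Shared peaks had 7.38% among the 25000 tallest and 8.82% over 1 kb from a gene start, the latter also added later. In each of these settings the gained peaks had the highest share.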
